A study of Homo sapiens with 9 samples.

Results

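The interferon-induced antiviral effector genes are the genes that a cell switches on when interferon reaches it and whose products block the entry, copying, translation or release of viruses. A list of 50 such genes, chosen with earlier results of these data known, was looked up in the gene table of this RNA-seq series. The table holds 59452 gene symbols. A gene was kept when it had at least 10 counts in at least 3 of the 9 libraries. 45 of the 50 passed. The samples were MDA-MB-453 cells, a human breast cancer line labelled as triple-negative and wild type (WT), grown for 48 hours in 3 conditions with 3 biological replicates each: attached culture with vehicle (DMSO), forced suspension culture on poly-HEMA-coated plates with vehicle, and the same suspension culture with 10 μM AT-0174 (AT0174 in the sample labels), an inhibitor of both tryptophan-degrading enzymes TDO2 and IDO1. No attached culture received AT-0174, so the inhibitor was compared with vehicle only in suspension. All libraries came from 1 cell line, and the labels name no treatment with interferon.

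Type I and type III interferons bind cell surface receptors whose associated kinases, JAK1 and TYK2, phosphorylate STAT2 among other proteins. STAT2 and IRF9 are parts of the complex ISGF3, which binds the interferon-stimulated response element (ISRE) in the promoters of these genes. Interferon gamma acts on a different element, the gamma-activated site (GAS), and a low unstimulated level of many of these genes is known from tumor cell lines.

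The promoter sequences of the genes were read from RefSeq (build GRCh38.p14) as windows of 300 bases, 250 before and 50 after the start of transcription, and were searched on both strands for the core of the ISRE, which reads TTTC, any 2 bases and TTTC again, with overlapping matches allowed. A window was found for 42 of the 50 listed genes and for 38 of the 45 kept ones. The core was present in 27 of these 38 (71.1%), while 1255 of all 35116 RefSeq promoter windows (3.57%) held it. The GAS core, TTC, any 3 bases and GAA, was present in 8 of the 38 (21.1%) and in 7.66% of all windows. A match describes the letters of the window only.

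6 promoters are printed here for the genes that the measurements below turn on: IFIT1, IFI6 and IFITM3, which were called lower with AT-0174, ISG15, which gives the ubiquitin-like modifier of the group, ISG20, which was higher in suspension, and BST2, the most abundant of the genes, whose level hardly moved. The windows are chr10:89392373-89392672 on the plus strand for IFIT1, chr1:27672143-27672442 on the minus strand for IFI6, chr11:320811-321110 on the minus strand for IFITM3, chr1:1013247-1013546 on the plus strand for ISG15, chr15:88638766-88639065 on the plus strand for ISG20 and chr19:17405581-17405880 on the minus strand for BST2. Each sequence runs 5′ to 3′ in the direction of its gene. Capitals mark the ISRE core on either strand, which reads GAAA, any 2 bases and GAAA where it lies on the opposite strand.
IFIT1: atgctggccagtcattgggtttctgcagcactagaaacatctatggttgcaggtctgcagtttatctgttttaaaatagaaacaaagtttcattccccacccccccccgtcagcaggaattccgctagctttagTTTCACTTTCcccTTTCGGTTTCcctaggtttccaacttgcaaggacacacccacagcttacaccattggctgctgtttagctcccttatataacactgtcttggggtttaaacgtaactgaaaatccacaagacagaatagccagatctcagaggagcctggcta
IFI6: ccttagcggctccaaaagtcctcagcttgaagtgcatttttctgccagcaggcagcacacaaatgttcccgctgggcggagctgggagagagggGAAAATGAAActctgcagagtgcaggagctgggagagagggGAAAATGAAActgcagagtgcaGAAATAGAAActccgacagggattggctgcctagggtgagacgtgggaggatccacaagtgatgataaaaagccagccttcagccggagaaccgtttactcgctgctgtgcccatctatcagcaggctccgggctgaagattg
IFITM3: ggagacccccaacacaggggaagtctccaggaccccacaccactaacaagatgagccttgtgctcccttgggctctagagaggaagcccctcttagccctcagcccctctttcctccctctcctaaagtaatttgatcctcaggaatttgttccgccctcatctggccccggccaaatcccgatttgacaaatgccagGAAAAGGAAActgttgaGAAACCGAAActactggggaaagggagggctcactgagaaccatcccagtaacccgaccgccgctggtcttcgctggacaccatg
ISG15: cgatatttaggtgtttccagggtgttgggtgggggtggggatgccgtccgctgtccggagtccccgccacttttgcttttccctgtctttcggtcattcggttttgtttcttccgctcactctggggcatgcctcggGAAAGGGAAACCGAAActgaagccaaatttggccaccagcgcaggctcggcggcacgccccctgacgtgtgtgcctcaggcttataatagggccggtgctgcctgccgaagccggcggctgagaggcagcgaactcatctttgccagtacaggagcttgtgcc
ISG20: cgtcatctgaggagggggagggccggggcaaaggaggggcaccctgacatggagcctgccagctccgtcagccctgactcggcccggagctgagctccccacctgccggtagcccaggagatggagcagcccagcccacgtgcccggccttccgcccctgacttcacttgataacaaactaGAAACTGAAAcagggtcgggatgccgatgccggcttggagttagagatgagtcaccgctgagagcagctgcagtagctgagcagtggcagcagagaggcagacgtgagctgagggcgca
BST2: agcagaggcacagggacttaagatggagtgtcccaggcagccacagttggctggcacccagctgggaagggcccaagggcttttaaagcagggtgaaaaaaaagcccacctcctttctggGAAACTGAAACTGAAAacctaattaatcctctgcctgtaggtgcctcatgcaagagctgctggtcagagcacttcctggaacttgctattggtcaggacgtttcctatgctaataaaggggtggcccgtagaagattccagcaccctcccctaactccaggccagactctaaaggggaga

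The most upstream of the printed cores starts 156 bases before the start of transcription, in IFI6, which holds 3 cores. IFIT1, IFITM3, ISG15 and BST2 hold 2 each. In ISG15 and BST2 the 2 cores overlap. ISG20 holds 1, which starts 69 bases before the transcription start. All 3 genes with a window that were called lower with AT-0174 held the core, as did BST2. Of the genes called lower in suspension with AT-0174 than in attached culture, 20 of 26 with a window (76.9%) held it. Of the other kept genes 7 of 12 (58.3%) did. Among the 26 were IFI44L, IFITM1 and IFITM3, which held the core and passed the count filter through the vehicle libraries alone. IFITM3 was also among the 3 called lower with AT-0174.

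Library depth ranged from 36649997 to 48019126 estimated counts, at which a count of 0 still allows a level of up to 0.0819 CPM (counts per 1000000 counts of a library) in the shallowest library, or 3 counts, with counting error only. The label of the cells was checked against marker genes: all 12 markers of a luminal androgen receptor breast cancer cell were expressed, with a summed level of 12480 to 14170 CPM. In contrast, 14 immune cell markers summed to 1.76 to 3.18 CPM and 5 endothelial markers to 0.145 to 0.386 CPM. Of the 14 immune markers, 7 were at 0 in every library and 2, CD8A and CD68, passed the count filter. Of 8 fibroblast markers 1, COL1A1, passed the count filter, and the list summed to 131.3 to 149.1 CPM in attached, 112.1 to 114.0 CPM in suspended vehicle and 107.5 to 114.0 CPM in AT-0174 libraries, with 3 of the 8 at 0 throughout. The part of these markers in the results was not tested. The RNA came from whole cultures, so fewer cells expressing a gene and less of its RNA per cell cannot be told apart.

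1 library stood apart for these genes. Replicate 2 of the attached cells held the highest level among the 3 attached libraries for 41 of the 45 genes (91.1%), against 31.6% of all 15528 genes tested, and its level was over 1.5 times that of the next attached library for 15 of them (33.3%), against 1.45% of all genes. Replicate 2 of the suspended vehicle cells was highest in its group for 28 of the 45 (62.2%), against 33.5% of all genes, and over 1.5 times the next library for 5. Calls of named genes against attached cells were therefore also made without attached replicate 2, and those lost are given beside the gene. What set this library apart was not tested.

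**Figure D1:**
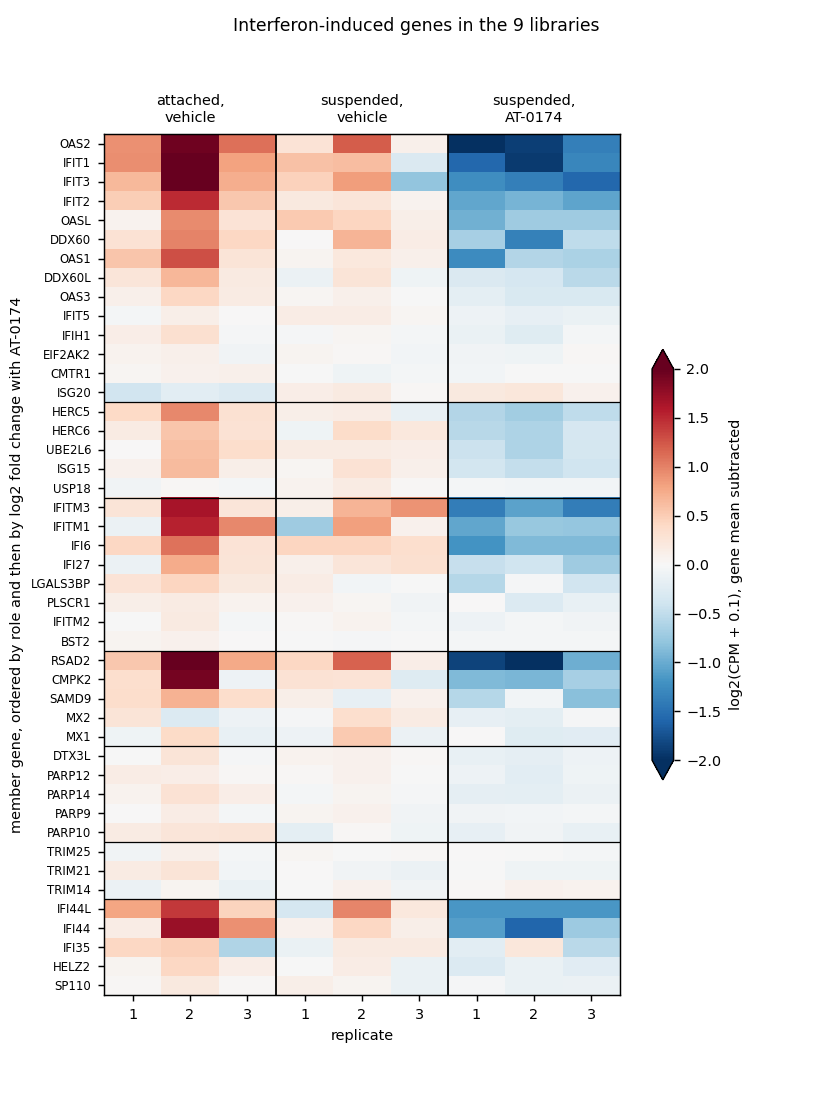
Level of the 45 kept genes (rows, grouped by role with lines between groups) in the 9 libraries (columns, replicates 1 to 3 of each condition), as log2(CPM + 0.1) minus the mean of the gene over all libraries, with colors limited to 2 in either direction. Attached replicate 2 is the darkest red column, with the highest attached level for 41 of 45 genes, and the AT-0174 columns are the deepest blue for OAS2, RSAD2, IFIT1, IFIT3, IFITM3, IFI44L, IFI44, IFIT2 and IFI6 (means of the 3 columns from -1.85 for OAS2 to -0.99 for IFI6) and pale for OAS3 (-0.274), IFIT5 (-0.135), BST2, IFITM2, USP18 and TRIM25.

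The rule kept a gene through any 3 libraries, so genes near the count limit could pass through the vehicle conditions alone. IFI44L had 11, 18 and 8 counts in the attached libraries, 3, 15 and 7 in the suspended vehicle libraries and none in the 3 AT-0174 libraries. IFITM3 had 8, 25.7 and 8, then 7, 14 and 16.9, and 0, 1 and 0 with AT-0174, and IFITM1 had 5, 22.5 and 15, then 2, 15 and 7.2, and 1, 2 and 2. These 3 genes therefore had to differ between the vehicle and AT-0174 libraries to be kept, and counts over the genes are also given without them. IFI35, a cytosolic partner of other interferon-induced proteins, was as close to the limit (12, 12 and 4, then 7, 11 and 11, then 8, 11 and 5 counts) but showed no such split.

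Just outside the rule, EPSTI1 had 5 to 13 counts with 2 libraries at 10 or more, and TRIM22 and XAF1 had 0 to 7. XAF1, a pro-apoptotic partner of XIAP, had 7, 4 and 2 counts in attached, 3, 5 and 2 in suspended vehicle and 0, 0 and 1 in AT-0174 libraries. RTP4 and SAMD9L were at 0 in all 9. Of the 45 kept genes, 41 had at least 10 counts in all 3 attached libraries, 41 in all 3 suspended vehicle libraries and 38 in all 3 AT-0174 libraries.

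Levels between genes can be compared in TPM, the number of transcripts per 1000000 transcripts of a library, which takes transcript length into account. BST2 (tetherin), which holds budding virus particles at the cell surface, had the highest mean of the group, with 296 ± 12.1 TPM in attached, 306 ± 4.49 TPM in suspended vehicle and 292 ± 5.53 TPM in AT-0174 libraries (mean ± SD, n = 3 each). IFITM2, a membrane protein that hinders virus entry, followed with 90.4 ± 8.40, 97.8 ± 3.70 and 91.0 ± 3.75 TPM. Next came ISG15, the ubiquitin-like protein that is attached to other proteins after interferon, with 64.4 ± 14.8, 62.0 ± 6.27 and 40.7 ± 2.45 TPM. PARP10, a mono-ADP-ribosyltransferase, had 46.0 ± 2.18, 37.0 ± 1.94 and 34.7 ± 1.52 TPM, and USP18, the protease that removes ISG15 and also restrains the type I receptor, had 36.6 ± 1.39, 42.9 ± 2.38 and 37.8 ± 0.870 TPM. PARP10 and USP18 had nearly equal means over the 9 libraries (39.2 and 39.1 TPM) and changed places in the order between attached and suspended cells, whereas BST2, IFITM2 and ISG15 kept theirs. At the other end, IFI44L, RSAD2, OAS2, IFI35, HERC5, DDX60, MX1, SAMD9, IFITM1, IFITM3, MX2 and CMPK2 averaged under 1 TPM over the 9 libraries.

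Differences between libraries are given for each gene in CPM, computed from the estimated counts on library sizes scaled by the trimmed mean of M values (TMM). Tests are edgeR's quasi-likelihood test over all 15528 genes with Benjamini-Hochberg adjustment, and a gene was called at an adjusted p under 0.05. The level of all genes was the reference: the median log2 difference over the 15528 genes lay between -0.00165 and 0.00133 in the 3 comparisons.

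The first comparison asked how AT-0174 changed the genes in suspended cells. 6 of the 45 genes were called lower and none higher, where 0.258% of all genes were called lower and 0.522% higher (0.779% in either direction). The 6 were IFI6, IFIT1, IFIT2, OASL, OAS2 and IFITM3. They made up 6 of the 40 genes called lower and 6 of the 9 genes that were both called and at least 2-fold lower. Because the list was chosen with earlier results of these data known, the shares given here describe it and are not an independent test. IFITM3 was among the 6 and had to differ to be kept, and without it the shares were 5 of 39 and 5 of 8. Of the 45 genes, 42 had a fitted difference below 0, against 49.27% of all genes, with a median log2 difference of -0.34. An unadjusted p under 0.05 was found for 28 of the 45, against 9.02% of all genes. The AT-0174 libraries all lay below the suspended vehicle libraries for 27 of the 45 and all above for none, where this was so for 7.65% and 7.78% of all genes. Without IFI44L, IFITM1 and IFITM3, 5 of 42 genes were called lower, 24 did not overlap and the median was -0.32. Setting IFI44L and IFITM3 at what their counts allow kept both below the median, so the median of -0.34 over the 45 could not change. Leaving out 1 library at a time gave 1 to 11 genes called lower, with 1 when AT-0174 replicate 1 or 2 was left out, 2 without AT-0174 replicate 3 or suspended vehicle replicate 1 or 2, and 11 without attached replicate 2.

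Among the genes that sense or attack RNA, 4 of 14 were called lower with AT-0174 and 10 of 14 lay lower without overlap. The IFIT family includes IFIT1, which binds viral RNA that lacks a proper cap. IFIT1 stood at 9.18, 21.7 and 8.42 CPM in replicates 1 to 3 of attached cells, 7.18, 7.32 and 3.87 CPM in suspended vehicle cells and 1.53, 1.19 and 1.86 CPM with AT-0174. No library of a condition overlapped one of another condition, and the AT-0174 libraries were the lowest. The difference between AT-0174 and vehicle in suspension was -1.99 ± 0.39 on the log2 scale (SE), 3.98-fold lower, with an adjusted p of 0.0355.

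IFIT2 read 3.76, 7.61 and 3.89 CPM in attached, 3.05, 3.15 and 2.80 CPM in suspended vehicle and 1.24, 1.34 and 1.22 CPM in AT-0174 libraries. The 3 conditions again formed separate steps, and the step from vehicle to AT-0174 was 2.36-fold (log2 -1.24 ± 0.25, adjusted p = 0.0424). IFIT3 had 1.96, 6.28 and 2.06, then 1.71, 2.24 and 0.660, and 0.456, 0.406 and 0.340 CPM in the same order. Its AT-0174 libraries were below every vehicle library, but the vehicle libraries were wide apart and the difference of -1.93 ± 0.55 had an adjusted p of 0.185. Exons of IFIT2 and IFIT3 overlap those of LIPA on the opposite strand over 65 and 94 bp, and LIPA averaged 29.46 CPM. Reads of these genes may not be fully separate. IFIT5, the member of the family that differed least, had 8.86, 9.93 and 9.14, then 10.1, 10.1 and 9.35, and 8.47, 8.10 and 8.36 CPM. Its AT-0174 libraries were also below every vehicle library (log2 -0.25 ± 0.07 against suspended vehicle, adjusted p = 0.188).

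The oligoadenylate synthetases make short oligoadenylates, which activate RNase L when double-stranded RNA is present. OAS2 had 1.59, 3.35 and 1.83 CPM in attached, 0.982, 1.97 and 0.865 CPM in suspended vehicle and 0.0828, 0.143 and 0.249 CPM in AT-0174 libraries. Every AT-0174 library was far below every vehicle library (log2 -3.00 ± 0.48, adjusted p = 0.0103). OASL, a relative without enzyme activity that supports the RNA sensor RIG-I, read 2.90, 5.39 and 3.37, then 4.03, 3.76 and 3.00, and 1.37, 1.65 and 1.66 CPM. Attached and suspended vehicle libraries overlapped for OASL, and the AT-0174 libraries lay under both (2.31-fold below suspended vehicle, adjusted p = 0.0239).

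OAS1 and OAS3 moved in the same direction without a call. OAS1 had 5.49, 9.16 and 4.46, then 3.82, 4.31 and 3.96, and 1.49, 2.41 and 2.33 CPM (log2 -0.96 ± 0.25 with AT-0174, adjusted p = 0.139). OAS3 had 84.8, 106 and 88.5, then 81.1, 84.5 and 78.2, and 68.7, 63.5 and 63.5 CPM (log2 -0.32 ± 0.07, adjusted p = 0.0621). In both genes the AT-0174 libraries were the lowest and overlapped no vehicle library. Within the family the fitted differences thus ran from -3.00 for OAS2 to -0.32 for OAS3.

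The helicase DDX60 had 1.86, 3.07 and 2.03, then 1.5, 2.47 and 1.66, and 0.911, 0.525 and 1.02 CPM, and its relative DDX60L had 2.33, 3.15 and 2.21, then 1.78, 2.36 and 1.82, and 1.57, 1.53 and 1.31 CPM. Neither was called with AT-0174 against vehicle (adjusted p = 0.108 and 0.517), although the AT-0174 libraries did not overlap the vehicle libraries. The double-stranded RNA sensor IFIH1 (MDA5) read 15.2, 17.4 and 13.6, then 13.6, 14.3 and 13.4, and 12.7, 11.7 and 13.5 CPM, with overlap between suspended vehicle and AT-0174. EIF2AK2 (PKR), the kinase that stops translation, and the cap methyltransferase CMTR1 differed by -0.05 ± 0.05 and 0.03 ± 0.04 on the log2 scale, with adjusted p-values of 0.832 and 0.910.

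**Figure D2:**
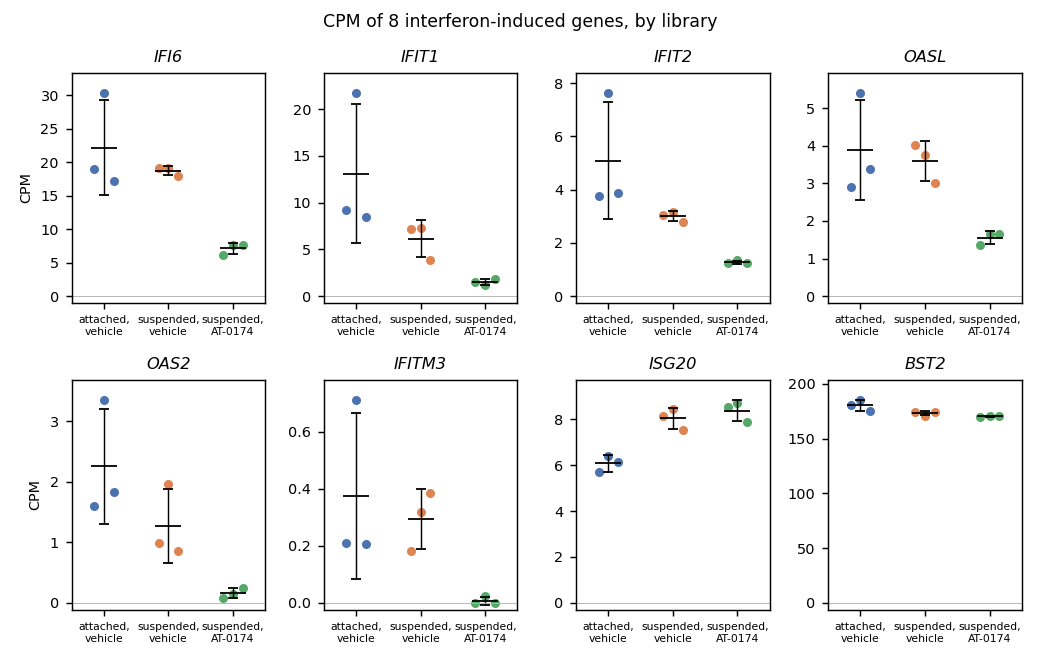
CPM of 8 genes in each library (points, replicates 1 to 3 from left to right within a condition), with the mean (long bar) and SD (capped line) of the 3 libraries of a condition, each panel on its own linear axis from 0. IFI6, IFIT1, IFIT2, OASL, OAS2 and IFITM3 are lowest in the AT-0174 libraries without overlap, ISG20 is lowest in the attached libraries, and BST2 stays between 170 and 185 CPM.

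Among membrane and secreted products, 2 of 8 genes were called lower with AT-0174 and 5 of 8 did not overlap. Over all genes the shares were 0.258% called lower and 7.65% lower without overlap. IFITM3 was among the 2 and, with IFITM1, among the 5, and both had to differ to be kept. IFI6, a small protein of the endoplasmic reticulum and mitochondria that limits flavivirus replication, kept its call in 19 of 19 alternative analyses. It had 19, 30.2 and 17.2 CPM in attached, 19.1, 19.1 and 18.0 CPM in suspended vehicle and 6.14, 7.62 and 7.64 CPM in AT-0174 libraries. Attached and suspended vehicle cells overlapped, and all AT-0174 libraries lay below them, 2.63-fold under suspended vehicle (log2 -1.40 ± 0.18, adjusted p = 0.00173).

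IFITM3, which like IFITM2 hinders virus entry at endosomes, was near the detection limit, at 0.209, 0.711 and 0.206 CPM in attached, 0.181, 0.318 and 0.384 CPM in suspended vehicle and 0, 0.0239 and 0 CPM in AT-0174 libraries. With 38 counts in the vehicle and 1 count in the AT-0174 suspensions, the ratio was 40.9 with an exact 95% interval from 6.9 to 1660 that covers counting error only (adjusted p = 0.0430 in the fit). IFITM1, a relative that acts at the cell surface, had 0.131, 0.622 and 0.386, then 0.0517, 0.340 and 0.164, and 0.0207, 0.0478 and 0.0453 CPM. Its AT-0174 libraries were the lowest, with an adjusted p of 0.417. The abundant IFITM2 read 29.5, 33.7 and 29, then 30.2, 31.3 and 29, and 27.9, 29 and 28.4 CPM, and its suspended vehicle and AT-0174 libraries overlapped. The 3 IFITM genes are close copies of each other, so reads could be shared among them by the estimate.

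IFI27, a mitochondrial and nuclear membrane protein, had 0.627, 1.22 and 0.850, then 0.749, 0.839 and 0.888, and 0.476, 0.502 and 0.385 CPM, with no overlap between AT-0174 and vehicle and an adjusted p of 0.304. The secreted glycoprotein LGALS3BP had 3.92, 4.34 and 3.71, then 3.57, 3.08 and 3.19, and 2.13, 3.15 and 2.45 CPM, and the phospholipid scramblase PLSCR1 16.6, 17.2 and 16.2, then 16.4, 15.8 and 14.7, and 15.4, 12.7 and 13.9 CPM. Both overlapped between suspended vehicle and AT-0174. BST2 had 181, 185 and 175, then 174.2, 171.0 and 174.3, and 170, 170 and 170 CPM (log2 -0.02 ± 0.03 with AT-0174, adjusted p = 0.876). Its highest AT-0174 library (170.5 CPM) was under its lowest suspended vehicle library (171.0 CPM), so that the conditions did not overlap although they lay close together.

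The calls of the other 5 genes lower with AT-0174 depended on single libraries and on the tool. With limma-voom, IFIT1, IFIT2 and OAS2 were not called (adjusted p = 0.212, 0.121 and 0.0518), and with counts rebuilt from TPM none of the 5 was (adjusted p from 0.192 to 0.634). OAS2 lost its call without AT-0174 replicate 1 or 2, with adjusted p-values of 0.0618 and 0.0538. OASL lost it without any 1 of the AT-0174 libraries or without suspended vehicle replicate 1 or 2, with adjusted p-values of 0.0734 to 0.108, and IFIT1 without the same libraries, with 0.111 to 0.170. IFIT2 and IFITM3 lost it without any 1 of the 6 suspension libraries, with adjusted p-values of 0.108 to 0.156 and of 0.0692 to 0.166, and IFITM3 also without attached replicate 1 (adjusted p = 0.0515). The fitted differences of all 5 stayed below 0 in these fits, and without attached replicate 2 their adjusted p-values were 0.000863 to 0.0177.

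ISG15 is joined to proteins by a chain of enzymes. The 5 listed genes grouped here under that system were lower in every AT-0174 library than in every suspended vehicle library, with 0 of 5 called. ISG15 itself had 19, 28 and 19.5 CPM in attached, 18.4, 21.9 and 19.2 CPM in suspended vehicle and 13.9, 12.8 and 13.6 CPM in AT-0174 libraries (log2 -0.56 ± 0.12, adjusted p = 0.0646). UBE2L6, the conjugating enzyme, had 5.52, 8.36 and 7.0, then 6.17, 6.14 and 6.01, and 4.04, 3.56 and 4.31 CPM (log2 -0.62 ± 0.14, adjusted p = 0.0621).

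The ligase HERC5 had 1.44, 2.19 and 1.34, then 1.16, 1.20 and 0.956, and 0.683, 0.621 and 0.725 CPM, and the related HERC6 had 3.95, 5.17 and 4.33, then 3.31, 4.56 and 4.07, and 2.36, 2.25 and 2.77 CPM. Their adjusted p-values with AT-0174 were 0.332 and 0.0621. USP18, which takes ISG15 off again, moved least, with 43.9, 46.9 and 44.9, then 48.5, 51.7 and 46.9, and 44.7, 44.5 and 44.4 CPM (log2 -0.14 ± 0.04, adjusted p = 0.259). Its AT-0174 libraries matched the attached range and lay under the suspended vehicle range.

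Of 5 GTPases, nucleotide enzymes and SAMD9 proteins, 0 were called with AT-0174 and 2 did not overlap. RSAD2 (viperin), which makes a chain-terminating nucleotide, had 0.967, 3.60 and 1.13, then 0.878, 1.56 and 0.706, and 0.103, 0.0239 and 0.272 CPM. CMPK2, its neighbor and a nucleotide kinase, had 1.05, 3.32 and 0.747, then 1.01, 0.997 and 0.660, and 0.393, 0.382 and 0.476 CPM. Both were lowest in the AT-0174 libraries, with adjusted p-values of 0.0875 and 0.556. Exons of this pair overlap over 351 bp on opposite strands, so their reads may not be fully separate. SAMD9, which restricts poxviruses, had 3.03, 3.87 and 3.04, then 2.56, 2.09 and 2.5, and 1.55, 2.27 and 1.27 CPM. The dynamin-like GTPases MX1 and MX2, the textbook antiviral proteins of the pathway, stood at 0.747 to 1.41 CPM in all libraries and overlapped between all conditions. Exons of MX1 overlap those of TMPRSS2 on the opposite strand over 442 bp, and TMPRSS2 averaged 19.6 CPM. The reads of MX1 may therefore not be fully separate either.

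The genes of ADP-ribosylation showed small differences, from -0.21 to -0.05 on the log2 scale, with 0 of 5 called and 3 of 5 not overlapping. The 3 TRIM genes were TRIM14, which encodes an adaptor of antiviral signaling, and TRIM21 and TRIM25, which encode ubiquitin ligases. They lay between -0.03 and 0.05 and all overlapped. In the remaining group of 5, IFI44L had 25 counts in the suspended vehicle and 0 in the AT-0174 libraries, at least 8.96-fold lower when 3 counts are allowed over the AT-0174 group (adjusted p = 0.0689). Its relative IFI44 had 0.627, 2.08 and 1.13, then 0.594, 0.771 and 0.615, and 0.207, 0.119 and 0.295 CPM (adjusted p = 0.182), and the helicase HELZ2 29.4, 37.8 and 31.1, then 28, 31.4 and 25.7, and 23.4, 25.8 and 24.1 CPM (adjusted p = 0.485). The AT-0174 libraries were the lowest for IFI44 and overlapped suspended vehicle for HELZ2.

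**Figure D3:**
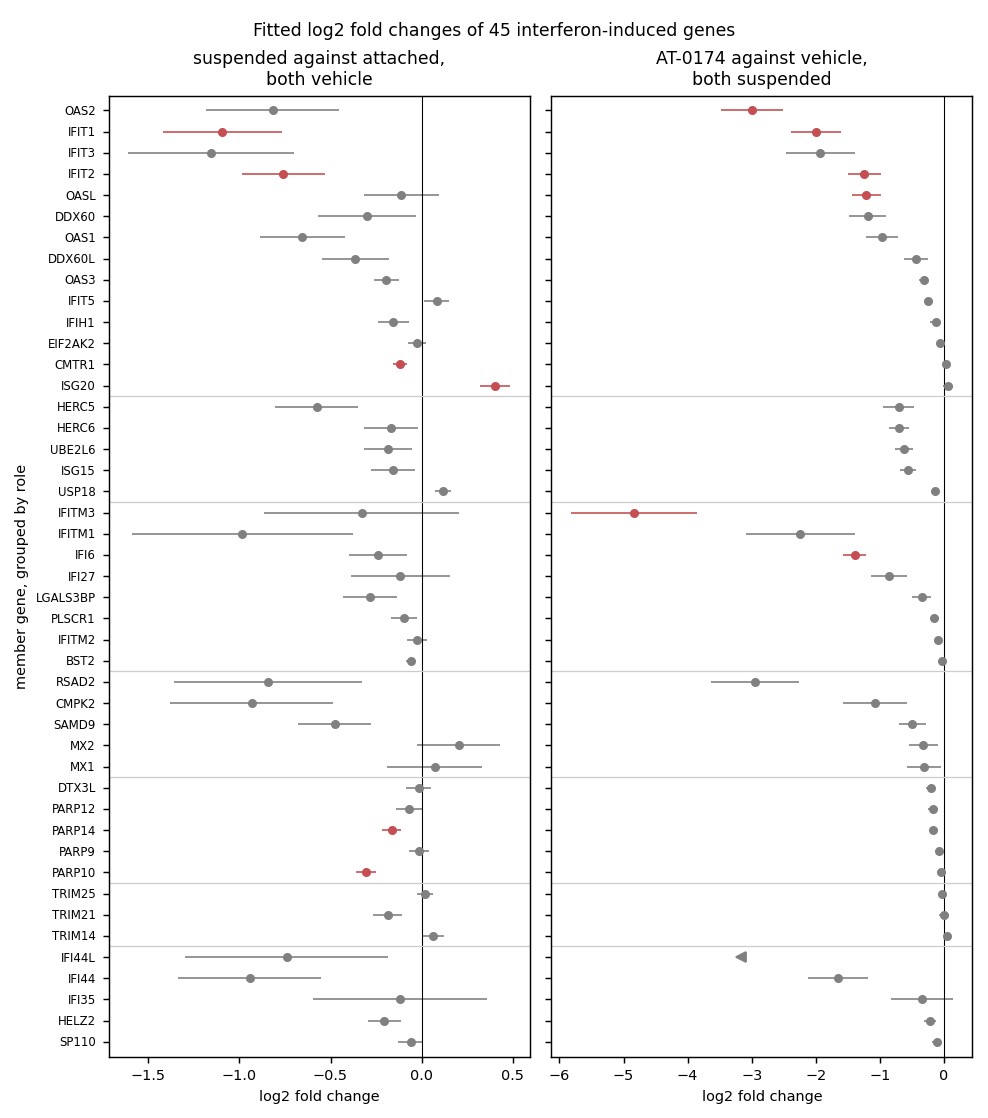
Fitted log2 fold change (points) with its SE (lines) for each of the 45 genes, grouped by role, for suspended against attached vehicle cells (left) and AT-0174 against vehicle in suspension (right, on a wider axis), with called genes in red. 5 genes are called lower and ISG20 higher on the left, and 6 are called lower on the right, where the triangle for IFI44L (0 counts with AT-0174) marks the 8.96-fold bound that its counts allow.

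In medians, the difference with AT-0174 was larger for genes of lower level, though single genes departed from this. The 26 genes under a mean of 10 CPM over all libraries had a median log2 difference of -0.91 between AT-0174 and vehicle, with 5 called lower and 20 not overlapping. Without IFI44L, IFITM1 and IFITM3, which had to differ to be kept, the median of the remaining 23 was -0.71, with 4 called lower and 17 not overlapping. The 19 genes at 10 CPM or more had a median of -0.11, with 1 called and 7 not overlapping. The 1 called was IFI6, with a mean of 16.0 CPM and a difference of -1.40. Some genes under 10 CPM differed little, such as ISG20 (0.06), IFIT5 (-0.25) and MX1 (-0.31). Over all genes split at the same level the medians were -0.00670 and 0.00299, with 10 of 6164 and 30 of 9364 genes called lower. Over all 15528 genes, 7.65% lay lower without overlap, a share that was not split by level. Summed over the 26 lower genes, the level was 77.6, 124 and 78.4 CPM in attached, 73.6, 80.6 and 66.8 CPM in suspended vehicle and 47.8, 48.4 and 49.4 CPM in AT-0174 libraries, so that the 3 AT-0174 libraries lay close together and below all others. For the 19 higher genes the sums were 847, 946 and 842, then 829, 845 and 806, and 762, 758 and 765 CPM.

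**Figure D4:**
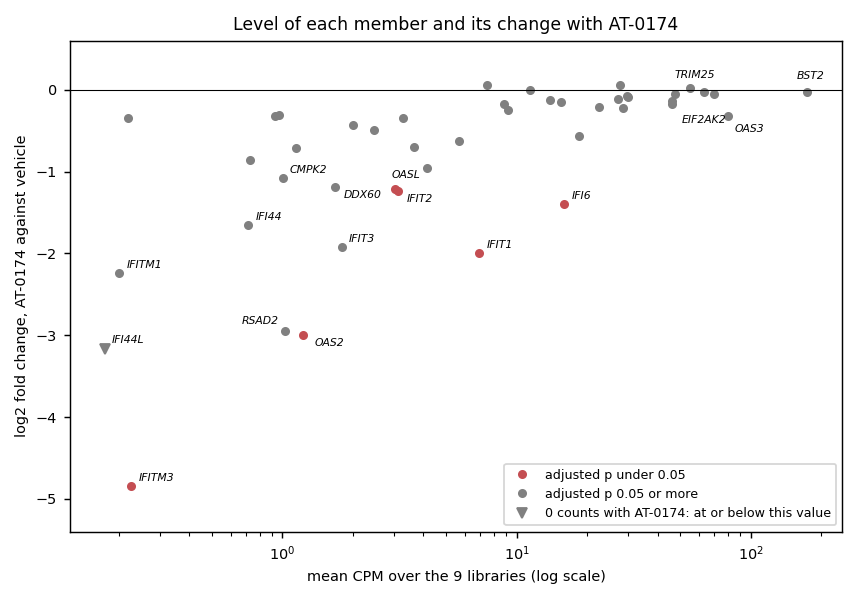
Log2 fold change with AT-0174 against vehicle in suspension (vertical axis) against the mean CPM over the 9 libraries (horizontal, log scale) for the 45 genes, with called genes in red. The genes over 20 CPM lie between -0.32 and 0.05. Between 10 and 20 CPM lie, among others, IFI6 (16.0 CPM, -1.40) and ISG15 (18.5 CPM, -0.56). Genes under 10 CPM run from 0.06 for ISG20 to -3.00 and, at a few counts per library, the fitted -4.84 of IFITM3. The triangle gives the bound for IFI44L.

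The next comparison asked whether suspension culture itself changed these genes, with vehicle in both conditions. 5 of the 45 genes were called lower and 1 higher, where 10.8% of all genes were called lower and 10.4% higher, so the share of called genes (6 of 45) was below that of all genes (21.2%). 38 of 45 fitted differences were below 0, against 50.04% of all genes, with a median of -0.17. Suspended libraries lay entirely below the attached ones for 11 genes and entirely above for 1, where all genes gave 18.7% and 19.4%. Without attached replicate 2, 1 gene was called lower and 1 higher, and the same numbers were obtained without suspended vehicle replicate 1 or 3 and without replicate 2 of both vehicle conditions. 2 genes were called lower without suspended vehicle replicate 2 and 3 without AT-0174 replicate 3, which enters this comparison through the shared estimate of the spread.

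ISG20, an exonuclease that degrades single-stranded RNA, was the only one of the 45 genes called higher. It had 5.70, 6.42 and 6.13 CPM in attached and 8.16, 8.43 and 7.53 CPM in suspended vehicle libraries, with no overlap (log2 0.40 ± 0.08, adjusted p = 0.00556). AT-0174 libraries stayed at 8.55, 8.72 and 7.87 CPM, a difference of 0.06 ± 0.08 from suspended vehicle. The call of ISG20 held in 19 of 19 alternatives. ISG20 thus moved opposite to most of the group in suspension and was 1 of 3 genes with a fitted difference above 0 with AT-0174.

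PARP10, whose call in suspension also held in 19 of 19 alternatives, had 52.9, 55.6 and 56.4 CPM in attached, 41.3, 47.8 and 44.3 CPM in suspended vehicle and 41.9, 44.8 and 42.3 CPM in AT-0174 libraries. Both suspension conditions lay under the attached range (log2 -0.31 ± 0.05, adjusted p = 0.00233 for suspended vehicle), and AT-0174 added a difference of -0.05 ± 0.05. Exons of PARP10 overlap those of GRINA on the opposite strand over 231 bp, and GRINA averaged 379.6 CPM. PARP14, a related transferase, had 48.3, 55.8 and 50.3, then 44.8, 47.5 and 45.3, and 40.5, 40.0 and 42.0 CPM (log2 -0.16 ± 0.05 in suspension, adjusted p = 0.0403). CMTR1 had 56.1, 58.0 and 58.5, then 54.3, 51.5 and 53.2, and 52.7, 54.5 and 54.7 CPM (log2 -0.12 ± 0.04, adjusted p = 0.0384). PARP14 lost its call without attached replicate 2 or 3, any suspended vehicle library or AT-0174 replicate 1 or 3, with adjusted p-values of 0.0518 to 0.153. CMTR1 lost it without attached replicate 2 or 3, any suspended vehicle library or AT-0174 replicate 2 or 3, with adjusted p-values of 0.0501 to 0.162. CMTR1 was also not called with the replicate number as a block (adjusted p = 0.0542), with DESeq2 (adjusted p = 0.0527), without a count filter (adjusted p = 0.102) or with counts rebuilt from TPM (adjusted p = 0.170), and PARP14 not with the last (adjusted p = 0.153).

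IFIT1 and IFIT2 were the other genes called lower in suspension, by -1.09 ± 0.33 (adjusted p = 0.0318) and -0.76 ± 0.23 (adjusted p = 0.0335). Without attached replicate 2 the differences were -0.52 with an adjusted p of 0.140 and -0.35 with an adjusted p of 0.108. Both genes also lost their call without any 1 of the suspended vehicle libraries, with adjusted p-values of 0.0517 to 0.116 for IFIT1 and 0.0760 to 0.101 for IFIT2. With limma-voom the adjusted p-values were 0.0508 and 0.0556, with counts rebuilt from TPM 0.125 and 0.135, and with DESeq2 IFIT1 had 0.0632. Genes such as IFIT3, RSAD2 and CMPK2, with fitted differences of -1.16, -0.84 and -0.93 in suspension, overlapped between attached and suspended libraries and had their highest value in attached replicate 2. Of the other genes called lower with AT-0174, IFI6, OASL and IFITM3 differed by -0.24 ± 0.16, -0.11 ± 0.21 and -0.33 ± 0.54 between suspended and attached vehicle cells, with adjusted p-values of 0.322, 0.752 and 0.712. OAS2 differed by more, -0.82 ± 0.365, and was not called either (adjusted p = 0.135).

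The comparison of suspended AT-0174 cells with attached vehicle cells holds the change of culture and of inhibitor together and shares its libraries with both comparisons above. 30 of the 45 genes were called lower and 1, ISG20, higher (log2 0.46 ± 0.08, adjusted p = 0.00196), where 11.8% of all genes were called lower and 12.2% higher. The median log2 difference was -0.51, and 36 of 45 genes lay below the attached range in all 3 AT-0174 libraries, against 19.1% of all genes, and ISG20 above it, against 20.4%. Without IFI44L, IFITM1 and IFITM3, 27 of 42 were called lower. Without attached replicate 2, 25 were called lower, and the 5 calls lost were those of DTX3L, IFI27, IFIH1, PARP12 and PLSCR1, with adjusted p-values of 0.0729 to 0.111. Each of these 5 also lost its call without at least 1 of the AT-0174 libraries.

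By role, 10 of 14 RNA-directed genes, 6 of 8 membrane and secreted products, 4 of 5 genes of the ISG15 system, 4 of 5 of ADP-ribosylation, 3 of 5 GTPases, nucleotide enzymes and SAMD9 proteins and 3 of 5 of the remaining genes were called lower in AT-0174 suspensions than in attached cells, and 0 of 3 TRIM genes were. Over all genes, 11.8% were called lower. These role counts include IFITM1 and IFITM3 among the membrane products and IFI44L among the remaining genes, which had to differ to be kept. Called or not, 43 of the 45 fitted differences were below 0, 2 of the 3 TRIM genes among them, against 50.36% of all genes. The differences with smaller adjusted p-values included IFI6 (-1.64 ± 0.18, adjusted p = 7.5e-05), IFIT1 (-3.09 ± 0.38, adjusted p = 0.000202), OAS2 (-3.82 ± 0.47, adjusted p = 0.000205), IFIT2 (-2.0 ± 0.25, adjusted p = 0.000209) and OAS3 (-0.51 ± 0.07, adjusted p = 0.000389). Among genes without a call in the other comparisons, OAS1, ISG15, UBE2L6, HERC5 and HERC6 differed by -1.62 ± 0.25, -0.72 ± 0.12, -0.81 ± 0.14, -1.28 ± 0.24 and -0.87 ± 0.15. IFI44L was at least 14.4-fold lower, at 37 counts against 0.

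Of the ADP-ribosylation genes, PARP12 had 9.86, 9.68 and 8.96, then 8.97, 9.38 and 8.83, and 8.20, 7.6 and 8.34 CPM, and DTX3L, the ubiquitin ligase that pairs with PARP9, had 22.4, 26.9 and 22.0, then 23.7, 23.9 and 22.9, and 20.3, 19.8 and 20.9 CPM. Both were called lower in this comparison by small amounts (-0.24 ± 0.07 and -0.22 ± 0.07). PARP9 itself read 28 to 32.6 CPM over all libraries and was not called (adjusted p = 0.248). The 14 genes with no call here included BST2, IFITM2, USP18, EIF2AK2, TRIM25, MX1 and MX2.

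The regulators and other genes of the interferon pathway were looked at from another list of 106 genes, of which 71 were tested. With AT-0174 against vehicle in suspension, 0 of the 71 were called by edgeR in either direction, where 0.779% of all genes were. 7 of the 71 had an unadjusted p under 0.05, against 9.02% of all genes, and DESeq2 called 1 lower. In suspension against attached vehicle cells, 12 were called lower and 4 higher, next to 10.8% and 10.4% of all genes. In AT-0174 suspensions against attached cells, 17 were called lower and 4 higher, next to 11.8% and 12.2%. Without attached replicate 2 the 12 became 6.

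The ligands were nearly silent: 16 of the 21 interferon genes that the table lists were at 0 in every library, and no library had more than 6 counts (0.137 CPM) of any of them. IFNAR1, a chain of the type I receptor, had 58.3, 55.6 and 56.5 CPM in attached, 59.0, 63.0 and 64.4 CPM in suspended vehicle and 59.9, 57.4 and 60.5 CPM in AT-0174 libraries, and was called higher in suspension (log2 0.13 ± 0.04, adjusted p = 0.0460). This call was lost without any 1 attached library, suspended vehicle replicate 2 or 3 or AT-0174 replicate 1 or 3 (adjusted p from 0.0523 to 0.152), and with the replicate number as a block (adjusted p = 0.0593). The IFNAR1 call held in 7 of 19 alternatives. It was also lost with DESeq2 (adjusted p = 0.0502) and with only the 6 libraries of the comparison (adjusted p = 0.0723). Without replicate 2 of both vehicle groups the adjusted p was 0.257. IFNAR2, the other chain, overlapped between all conditions. The type III receptor gene IFNLR1 had 6 to 13 counts in the vehicle libraries and 4, 1 and 2 with AT-0174, and was not tested.

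IRF9, the DNA-binding part of ISGF3, had 15.3, 27.1 and 19.2 CPM in attached, 9.61, 11.4 and 9.79 CPM in suspended vehicle and 4.16, 7.04 and 6.15 CPM in AT-0174 libraries. The 3 conditions were separate, with a difference of -0.99 ± 0.19 in suspension (adjusted p = 0.00412) and of -0.84 ± 0.21 with AT-0174 (adjusted p = 0.121). IRF1, a transcription factor that can induce part of the same genes, had 5.36, 6.47 and 5.41, then 3.69, 4.35 and 3.37, and 2.84, 2.29 and 3.33 CPM, with differences of -0.59 ± 0.15 (adjusted p = 0.0141) and -0.43 ± 0.15 (adjusted p = 0.362). Both factors fell in suspension, and neither was called with AT-0174. Without attached replicate 2 IRF9 kept its call (log2 -0.74, adjusted p = 0.0120) and IRF1 did not (adjusted p = 0.0540), nor was IRF1 called without suspended vehicle replicate 3 (adjusted p = 0.0581).

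STAT2 had 52.4, 53.5 and 58.2, then 44.1, 48.5 and 46.3, and 43.2, 46.0 and 46.1 CPM, and was called lower in suspension (-0.24 ± 0.05, adjusted p = 0.00648) with no further step with AT-0174 beyond the spread (-0.04 ± 0.05, adjusted p = 0.896). The kinase gene TYK2 (-0.26 ± 0.06) and IRF7 (-0.16 ± 0.05), which drives interferon genes, were also called lower in suspension. Without attached replicate 2 STAT2 and TYK2 kept their call (adjusted p = 0.0137 and 0.0101), whereas IRF7 lost it (adjusted p = 0.145). IRF7 also lost it without attached replicate 3, any 1 suspended vehicle library or AT-0174 replicate 3 (adjusted p from 0.0528 to 0.128). IRF3, which can induce these genes without interferon, was not called in either comparison (adjusted p = 0.950 with AT-0174 and 0.0600 in suspension).

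**Figure D5:**
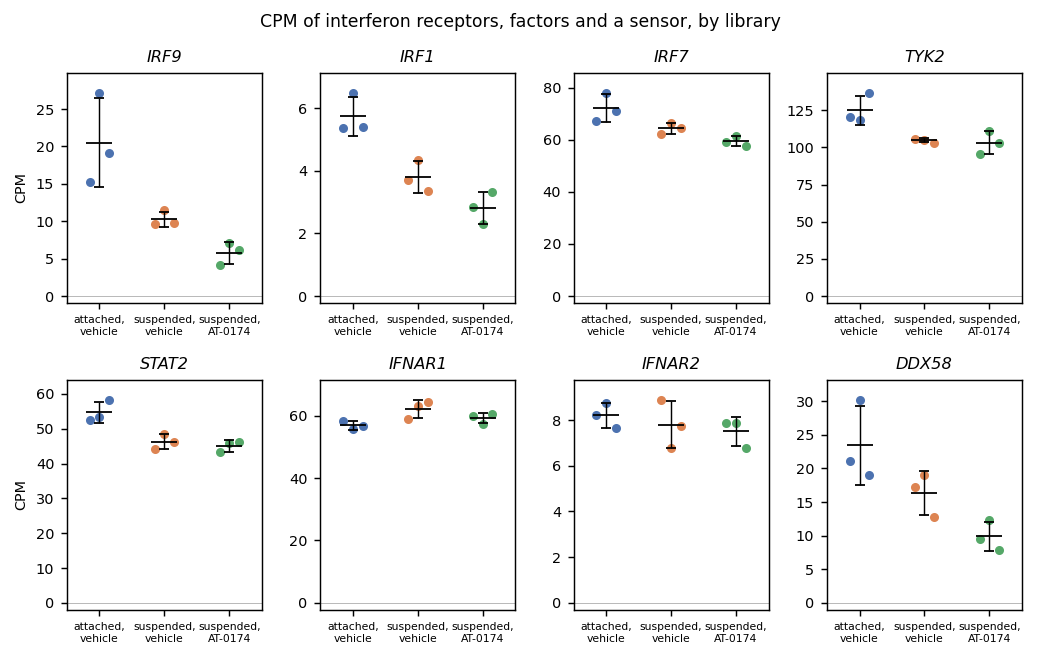
CPM in each library (points), with mean (long bar) and SD (capped line) of the 3 libraries of a condition, for interferon-regulatory factors, STAT2, the kinase gene TYK2, both chains of the type I receptor and the RNA sensor gene DDX58, each panel on its own linear axis from 0. IRF9, IRF1 and STAT2 are lower in both suspension conditions than in attached cells, IFNAR1 and IFNAR2 stay near their level, and DDX58 runs from 19 to 30.1 CPM in attached to 7.92 to 12.2 CPM in AT-0174 libraries.

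The sensor gene DDX58 (RIG-I), named here after its values were seen, had 21.1, 30.1 and 19, then 17.2, 19 and 12.7, and 9.46, 12.2 and 7.92 CPM. It was not called in suspension (-0.52 ± 0.18, adjusted p = 0.0620) or with AT-0174 (-0.72 ± 0.20, adjusted p = 0.158), and differed by -1.25 ± 0.19 between AT-0174 suspensions and attached cells (adjusted p = 0.000856). Among further interferon-stimulated genes, SHFL, an inhibitor of ribosomal frameshifting, and APOL6 were called lower in suspension (-0.58 ± 0.08 and -0.87 ± 0.24), whereas TNFSF10 (TRAIL), a death ligand, and the guanylate-binding protein gene GBP2 were called higher (0.42 ± 0.06 and 0.27 ± 0.08). The calls of SHFL and TNFSF10 held in 19 of 19 alternatives. APOL6 lost its call without attached replicate 2 (adjusted p = 0.0819) or any 1 suspended vehicle library (0.0556 to 0.0727), and GBP2 without attached replicate 1 or 3 or suspended vehicle replicate 1 or 2 (0.0659 to 0.0960). GBP2 returned to 7.66, 7.81 and 7.84 CPM with AT-0174 from 10.9, 9.88 and 9.13 CPM (adjusted p = 0.0600), next to 7.95, 8.66 and 8.14 CPM in attached cells. IDO1, an interferon-induced gene and a target of AT-0174, had at most 1 count in any library and was not tested.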

How the data were processed

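Total RNA from MDA-MB-453 cultures was sequenced in 9 libraries, 3 for each of 3 conditions. The submitters' processing notes name bcl2fastq 2.20.0.422, cutadapt 3.4, Trim Galore 0.6.7, STAR 2.7.9a, Salmon 1.10.1, R 4.2.2 and GRCh38. The authors deposited estimated counts per gene, made with Salmon and not normalized, and estimated counts and TPM per transcript for each library. The labels and the study's methods name different library kits, and strandedness is not given in the sources used here.

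The estimated counts were rounded and fitted with edgeR 4.0.16 in R 4.3.3: TMM scaling, filterByExpr by condition (15528 genes), 1 quasi-likelihood fit over all 9 libraries with condition as the only term, and Benjamini-Hochberg adjustment over all genes tested. TPM were summed over the transcripts of a gene. Alternatives were DESeq2 1.42.0, limma-voom (limma 3.58.1), other size factors and count filters, the 6 libraries of a comparison alone, a replicate block, counts rebuilt from TPM and leaving out each library. Leaving out replicate 2 of both vehicle groups was added after seeing the data.

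The members and lists were chosen with earlier results of these data known. Values in every library are given for members called in at least 1 comparison, the 5 with the highest mean TPM and those nearest the count filter. Of the pathway genes, receptors, STAT2, IRF9, IRF1, IRF3, IRF7, IDO1 and genes called in either of the first comparisons could be named, and 1 gene of this list is not reported here. Exon overlaps were read from GENCODE release 44 (GRCh38). Intervals and floors cover counting error only.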

Additional observations from a re-analysis of the deposited data

How the results depend on the processing

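Over 19 alternatives, none of the 43 called differences of the 45 genes and of the 19 called differences of the named pathway genes changed sign in those that could be run for them. With counts rebuilt from TPM, IRF1, APOL6, GBP2 and IFNAR1 lost their call in suspension. For AT-0174 against vehicle in suspension, the 6 genes called lower became 13 with DESeq2, 18 without a count filter, 10 with only the 6 libraries of the comparison and 1 with counts rebuilt from TPM, and 1 to 11 when a library was left out: 1 without AT-0174 replicate 1 or 2, 2 without AT-0174 replicate 3 or suspended vehicle replicate 1 or 2, and 11 without attached replicate 2. The 0 pathway genes called lower became 1 with DESeq2, 3 without a filter, 1 with 6 libraries and 0 to 1 when a library was left out. The 121 genes called in all became 239, 499 and 31 with DESeq2, no filter and TPM, and 63 to 128 with a library left out. For suspension against attachment, the 5 genes called lower became 3 with limma-voom, 13 without a filter, 2 from TPM and 1 without replicate 2 of both vehicle groups, and 1 to 7 with a library left out (1 without attached replicate 2 or suspended vehicle replicate 1 or 3). The 4 pathway genes called higher became 2 from TPM and 2 without both, and 2 to 5, the 12 called lower became 5 without both, and 6 to 12, and the 3297 genes in all became 1396 from TPM and 1564 without both, and 1935 to 3260. For AT-0174 suspensions against attached cells, the 1 gene called higher became 2 without both, and 1 to 2, the 30 called lower became 16 from TPM, and 25 to 31, the pathway counts of 4 higher and 17 lower became 2 with DESeq2 and 9 from TPM, and 2 to 4 and 13 to 17, and the 3724 genes in all became 1802 from TPM, and 2239 to 3680. The cause of these shifts was not tested.

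Same-numbered libraries of different conditions did not deviate together, with correlations of -0.0814 to 0.0934, so the numbers were not taken as pairing. With the replicate block, 7 of the 45 genes and 2 pathway genes were called lower with AT-0174, 7 genes in suspension and 30 in AT-0174 suspensions against attached cells. In suspension CMTR1 and IFNAR1 lost their call with the block (adjusted p = 0.0542 and 0.0593), and no other call of a named gene was lost with it. Of the 31 genes called in AT-0174 suspensions against attached cells, 17 kept their call in every alternative that could be run for them, 9 lost it in 1 and 5 in more. IFITM3 and IFI44L rest on 0 or 1 count with AT-0174, so depth limits the size of their difference.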
